A study of Mus musculus with 12 samples.

Results

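The levels of 10 genes of the JAK-STAT5 pathway were followed across mouse T-cell leukaemia and normal T-lineage cells: the kinases Jak1 and Jak3, the transcription factors Stat3, Stat5a and Stat5b, the feedback inhibitors Socs1, Socs2, Socs3 and Cish, and the kinase Pim1. They were taken by gene symbol from the table of 54351 genes, and the 10 symbols matched 10 rows. All 10 passed the filter on low counts, which left 20897 genes tested. The 4 groups held 3 libraries each. LN3 thymus and LN3 spleen held leukaemia cells (T-ALL, acute lymphoblastic leukaemia of T cells) of overtly sick LN3 tg mice on the C57BL/6 strain, and WT thymocytes and WT CD8 cells came from tumour-free C57BL/6J mice. LN3 cells and WT thymocytes were dissociated mechanically with no sort stated, whereas WT CD8 cells were spleen T cells enriched by negative selection to a stated purity of 85 to 95%. The genes carried by the LN3 transgenes, their promoters, the age of the mice and the number of animals behind a group are not stated in the labels. The p-values therefore measure only the spread between these libraries, which may be technical.

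Cytokine receptors that contain the common gamma chain carry the kinases JAK1 and JAK3. When a ligand such as IL7 or IL2 binds, the kinases phosphorylate STAT5A and STAT5B, which pair, enter the nucleus and switch on target genes. Some of those targets, among them Cish and the Socs genes, encode proteins that block the receptor, the kinases or the STAT factors and so close a negative feedback loop. Activating mutations in JAK1, JAK3 and STAT5B occur in human T-ALL. RNA levels of these genes do not measure phosphorylation.

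Libraries held 12694571 to 42483898 counts, and the members were counted between 17 times (Socs2, LN3 thymus 2) and 54830 times (Jak1, WT CD8 cells 3) in a library. Levels are given in CPM, counts scaled to a common library size with TMM factors. All 10 T-lineage markers examined had counts in every library. The gene CT010467.1, annotated as ribosomal RNA, took 0.44, 10.5 and 4.61% of the counts in LN3 thymus 1, 2 and 3, against 1.15, 0.777 and 5.11% in WT thymocytes. In LN3 spleen it took 9.71, 4.88 and 4.83%, against 1.45, 0.827 and 0.581% in WT CD8 cells. The spleen groups did not overlap in this share, so there it cannot be told apart from genotype. Thymus libraries of both genotypes held high and low shares. In these bulk samples, fewer cells of a type and less RNA per cell cannot be told apart. LN3 cells were not enriched for CD8, unlike WT CD8 cells.

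In LN3 thymus the feedback inhibitor Socs1 fell 5.59-fold below WT thymocytes, while the kinases, the STAT genes, the other inhibitors and Pim1 did not pass the test. In LN3 spleen, Jak1, Jak3 and Socs3 fell 2.91- to 3.51-fold below WT CD8 cells and Stat5a rose 2.20-fold. WT CD8 cells were themselves higher in Jak1, Jak3 and Socs3 and lower in Stat5a than WT thymocytes. None of these members was called between LN3 spleen and LN3 thymus. In the thymus comparison 1 of 10 members was lower and 0 were higher, where 5.21% of all tested genes were lower and 6.06% higher, 11.3% in all. In the spleen comparison 3 members were lower and 1 was higher, where 13% of all tested genes were lower and 17.9% higher, 30.9% in all. The member counts were therefore near the background in both comparisons. The median log2 difference of the members was −0.37 in the thymus and −0.59 in the spleen, beside −0.04 and −0.11 over all tested genes.

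**Figure D1:**
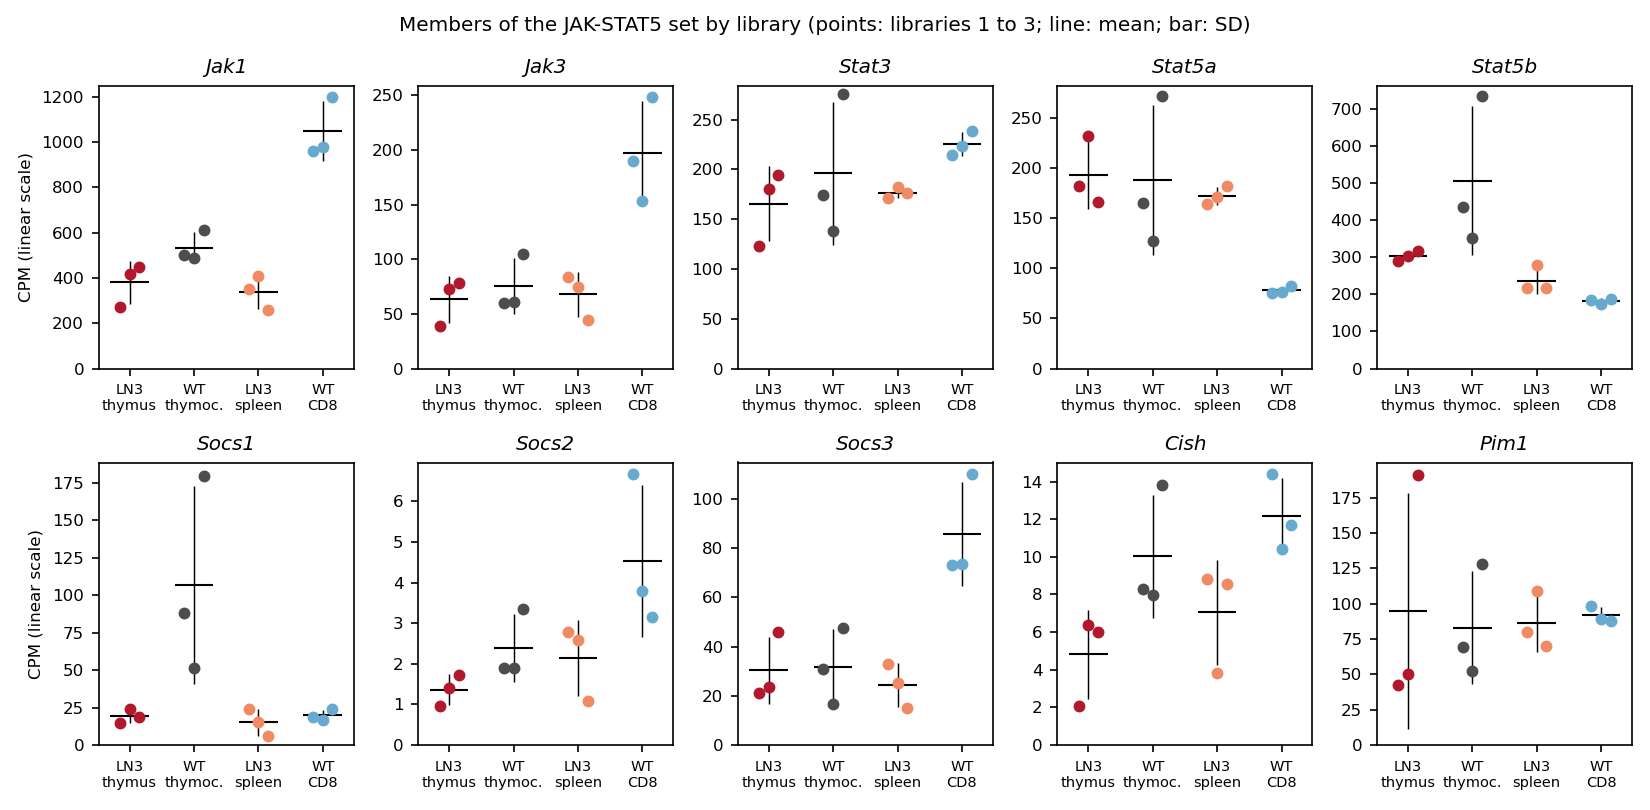
Level of each member in CPM (linear axes from 0) in the 12 libraries, with points for libraries 1 to 3 of a group, a line for the mean and a bar for the SD. Socs1 is high in WT thymocytes alone (51.5 to 180 CPM), and Jak1, Jak3 and Socs3 are highest in WT CD8 cells.

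The kinases are described first. Jak1, which serves most receptors of the pathway, lies on chromosome 4 (101152367 to 101265282, minus strand, GRCm38). Jak1 was at 273, 419 and 448 CPM in LN3 thymus, against 502, 488 and 612 CPM in WT thymocytes. It was at 351, 408 and 258 CPM in LN3 spleen, against 961, 980 and 1200 CPM in WT CD8 cells. The groups did not overlap in either organ, and all 6 LN3 libraries lay below all 6 WT libraries. Jak1 was the 1 member of 10 with that pattern, which 4.78% of all tested genes shared. In the spleen Jak1 fell 3.09-fold (log2 difference −1.63, SE 0.273, adjusted p = 0.00103 by edgeR's quasi-likelihood test). In the thymus the log2 difference was −0.49 (95% interval −1.07 to 0.09, adjusted p = 0.286).

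Jak3, which binds the common gamma chain, lies on chromosome 8 (71676296 to 71690575, plus strand). Jak3 was at 38.9, 72.4 and 78.4 CPM in LN3 thymus, against 59.9, 61.1 and 105 CPM in WT thymocytes. It was at 84.1, 74.6 and 44.6 CPM in LN3 spleen, against 190, 153 and 248 CPM in WT CD8 cells. The thymus groups overlapped and the spleen groups did not. Jak3 fell by 1.54 in the spleen (2.91-fold lower, SE 0.35, adjusted p = 0.00592), and its log2 difference in the thymus was −0.25 (95% interval −0.99 to 0.49, adjusted p = 0.719). In the annotation, 6.92% of the 31-base words of Jak3 also occur in Insl3, its neighbour on the same strand, so part of its counts is less certain.

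The STAT genes Stat5b, Stat5a and Stat3 lie side by side on chromosome 11. Stat5b (100780731 to 100850724, minus strand) and Stat5a (100859351 to 100885169, plus strand) are 8626 bases apart, and the end of Stat5a overlaps the end of Stat3 (100885098 to 100939540, minus strand) by 72 bases. The labels do not say whether counting used the strand. Stat5a shares 11.5% of its 31-base words with Stat5b, and Stat5b shares 15.1% of its own with Stat5a, so the estimated split between them is less certain than their sum.

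Stat5a was at 182, 232 and 166 CPM in LN3 thymus, against 165, 127 and 272 CPM in WT thymocytes. It was at 164, 171 and 182 CPM in LN3 spleen, against 75.8, 76.8 and 81.9 CPM in WT CD8 cells. Thymus levels overlapped, and every LN3 spleen library lay above every WT CD8 library. Stat5a rose 2.20-fold in the spleen (log2 difference 1.14, SE 0.271, adjusted p = 0.00756), and its log2 difference in the thymus was 0.04 (95% interval −0.54 to 0.62, adjusted p = 0.944), a difference whose sign changed under other scalings. With the share of the rRNA gene as a covariate, the spleen call ended (log2 difference 0.81, adjusted p = 0.0892).

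Stat5b was at 289, 304 and 316 CPM in LN3 thymus, against 436, 351 and 734 CPM in WT thymocytes. It was at 217, 278 and 216 CPM in LN3 spleen, against 186, 174 and 188 CPM in WT CD8 cells. LN3 libraries lay below WT libraries in the thymus and above them in the spleen, without overlap in either. Neither difference was called, at −0.74 in the thymus (95% interval −1.32 to −0.16, adjusted p = 0.099) and 0.37 in the spleen (−0.20 to 0.95, adjusted p = 0.29). The thymus difference was called without WT thymocytes 2 (−0.96, adjusted p = 0.0499). It was also called with upper-quartile factors (−0.88, adjusted p = 0.0346) and with library totals (−0.87, adjusted p = 0.0294), scalings that shifted the median over all genes by −0.167 and −0.196. Over all 22 alternatives the thymus difference ran from −1.20 to −0.37, and 18 of them did not call it. WT thymocytes 3 held the highest level, at 734 CPM.

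Stat3, the STAT factor of IL6-type and IL21 signals, was at 123, 180 and 194 CPM in LN3 thymus, against 174, 138 and 276 CPM in WT thymocytes, and these overlapped. In LN3 spleen it was at 171, 182 and 176 CPM, against 214, 223 and 238 CPM in WT CD8 cells, without overlap. The log2 differences were −0.24 in the thymus (adjusted p = 0.637) and −0.35 in the spleen (95% interval −0.93 to 0.23, adjusted p = 0.322). In the spleen Stat3 was called lower with scaling to library totals (−0.75, adjusted p = 0.0126), with upper-quartile factors (−0.68, adjusted p = 0.0372) and with limma on the authors' log2 values (−0.68, adjusted p = 0.0323). Library totals and upper-quartile factors shifted the spleen median over all genes by −0.399 and −0.325.

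The share of Stat5a in the summed counts of Stat5a and Stat5b was also computed, a measure chosen after the values were seen. This share does not depend on the scaling of libraries. Stat5a took 38.7, 43.3 and 34.4% of the sum in LN3 thymus, against 27.4, 26.6 and 27.1% in WT thymocytes. It took 43.1, 38.1 and 45.7% in LN3 spleen, against 28.9, 30.6 and 30.4% in WT CD8 cells. Every LN3 library lay above every WT library. The difference was 11.8 percentage points in the thymus (38.8 ± 4.47 against 27.0 ± 0.435%, SD, n = 3 each, exact permutation p = 0.1) and 12.3 points in the spleen (42.3 ± 3.83 against 30 ± 0.917%, exact permutation p = 0.1). With 3 libraries against 3, 0.1 is the smallest two-sided p possible. With the labels permuted within each organ over all 12 libraries, LN3 exceeded WT by 12.1 points (exact permutation p = 0.005, the smallest possible, and 0.025 adjusted over 5 comparisons). That test takes the thymus and spleen libraries of a genotype as independent. LN3 titles carry the same leukaemia numbers in both organs, so libraries may share an animal, and the p is then too small. Since the measure was chosen after the values were seen, its p-values do not account for that choice. They describe the separation of these libraries only. LN3 spleen exceeded LN3 thymus by 3.48 points (exact permutation p = 0.5), and their libraries overlapped. WT CD8 cells exceeded WT thymocytes by 2.97 points (exact permutation p = 0.1), and their libraries did not overlap. Exact Clopper-Pearson 95% intervals, which cover counting error only, ran from 33.7 to 46.9% over the LN3 libraries and from 25.6 to 31.7% over the WT libraries. The rRNA share moved with genotype in the spleen, and its part in this result was not tested. Among thymus libraries with a low rRNA share, LN3 thymus 1 was at 38.7%, against 27.4 and 26.6% in WT thymocytes 1 and 2. Among those with a high share, LN3 thymus 2 and 3 were at 43.3 and 34.4%, against 27.1% in WT thymocytes 3.

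**Figure D2:**
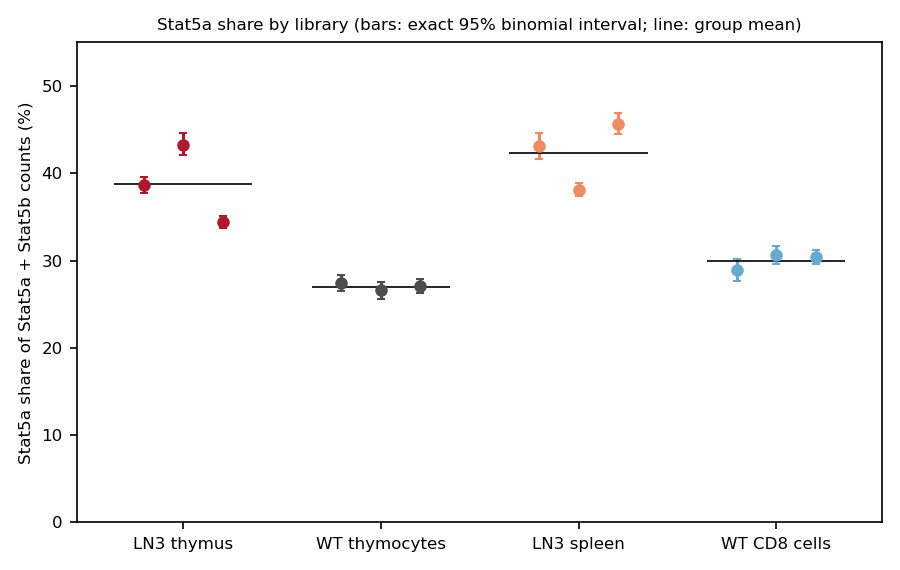
Share of Stat5a in the summed Stat5a and Stat5b counts of each library (%, axis from 0), with exact 95% binomial intervals as bars and group means as lines. The 6 LN3 libraries lie between 34.4 and 45.7% and the 6 WT libraries between 26.6 and 30.6%.

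Among the feedback inhibitors, Socs1 showed the largest difference of the 10 members in the thymus. Its protein binds JAK kinases directly and blocks their activity, and in mice its RNA is known to be abundant in double-positive thymocytes, the CD4+ CD8+ stage. Socs1 lies on chromosome 16 (10782240 to 10785536, minus strand). Socs1 was at 14.5, 23.8 and 18.9 CPM in LN3 thymus, against 88.4, 51.5 and 180 CPM in WT thymocytes. In LN3 spleen it was at 24.0, 15.7 and 5.87 CPM, against 18.9, 16.4 and 24.0 CPM in WT CD8 cells. WT thymocytes stood alone as the high group, and the other 3 groups overlapped. Socs1 averaged 19.1 ± 4.67 CPM in LN3 thymus and 106.5 ± 66 CPM in WT thymocytes (SD, n = 3 each), a fall with a log2 difference of −2.48 (SE 0.513, adjusted p = 0.00838). In the spleen its log2 difference was −0.39 (95% interval −1.44 to 0.68, adjusted p = 0.556).

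WT thymocytes 3 held the highest Socs1 level, and without it the log2 difference in the thymus was −1.87 (adjusted p = 0.0272). Thymus libraries with a low rRNA share held 14.5 CPM in LN3 thymus 1, against 88.4 and 51.5 CPM in WT thymocytes 1 and 2, and the comparison limited to them, with 1 LN3 library assumed to vary like the other groups, was not called (log2 difference −2.29, adjusted p = 0.156). Libraries with a high share held 23.8 and 18.9 CPM in LN3 thymus 2 and 3, against 180 CPM in WT thymocytes 3. Markers of double-positive thymocytes moved with Socs1: 6 of 10 were lower in LN3 thymus, where 5.21% of all tested genes were lower and 6.06% higher. Their summed level was 1520 to 2580 CPM, against 9350 to 13100 CPM in WT thymocytes. None of these markers was at 0 in any group. Markers of CD8 T cells were lower in 5 of 10 cases and higher in 1, at 706 to 1150 CPM summed in LN3 thymus, against 2320 to 4430 CPM in WT thymocytes. Dendritic markers, of which 1 of 10 was lower, summed to 141 to 360 CPM in LN3 thymus, against 816 to 1060 CPM in WT thymocytes. With 1 of 10 called, the dendritic sum can rest on few genes and need not reflect dendritic cells. The CD8 T-cell list shares Cd8a and Cd8b1 with the double-positive list. The part of these cell types in the Socs1 difference was not tested.

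The bases before the start of Socs1 are shown because Socs1 was the member that fell in LN3 thymus, and short stretches of the Cish and Socs3 windows because they hold a STAT motif, at and just after the annotated start in Cish and before it in Socs3. They come from RefSeq on GRCm38.p6, where 9 of the 10 members matched a window (all but Socs2). Windows ran from 250 bases before to 50 bases after an annotated start. The STAT motif TTCNNNGAA, which reads alike on both strands, occurred in the windows of Cish and Socs3, and 8.3% of all 32851 windows hold it. Cish has 2 matches, and 0.457% of windows hold 2 or more. The IRF motif, GAAA followed by any 2 bases and GAAA, which interferon regulatory factors bind, was searched on both strands and occurred in the window of Socs1 alone among the members. Socs1 has 2 matches that overlap each other, where 0.225% of windows hold 2 or more and 3.44% hold 1 or more. A match is a description of the letters and not evidence of binding. Capitals mark the IRF motif in Socs1 (chr16:10785537-10785786, minus strand) and the STAT motif in Cish (chr9:107296655-107296684, plus strand) and Socs3 (chr11:117969501-117969530, minus strand), each 5′ to 3′.
Socs1: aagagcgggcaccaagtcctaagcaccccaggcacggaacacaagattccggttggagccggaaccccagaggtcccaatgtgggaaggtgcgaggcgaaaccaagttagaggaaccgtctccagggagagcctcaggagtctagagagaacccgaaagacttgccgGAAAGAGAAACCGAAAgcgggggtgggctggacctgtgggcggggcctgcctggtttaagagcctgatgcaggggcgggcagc
Cish: agttTTCCTGGAAagTTCTTGGAAatctgt
Socs3: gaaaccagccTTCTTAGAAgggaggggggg

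Socs3, which blocks receptors of the IL6 type together with their JAK kinases, lies on chromosome 11 (117966079 to 117970047, minus strand). Socs3 was at 21.3, 23.5 and 46.1 CPM in LN3 thymus, against 31, 16.7 and 47.4 CPM in WT thymocytes. It was at 33, 25.3 and 15 CPM in LN3 spleen, against 73.3, 73.6 and 110 CPM in WT CD8 cells. The thymus groups overlapped and the spleen groups did not. Socs3 fell 3.51-fold in the spleen (log2 difference −1.81, SE 0.43, adjusted p = 0.00751), and its log2 difference in the thymus was −0.06 (95% interval −0.97 to 0.85, adjusted p = 0.949). Socs1, without a STAT motif in its window, and Socs3, with a match, both share no 31-base word with another annotated gene.

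Cish, an inhibitor that binds activated receptors and is a classic STAT5 target, lies on chromosome 9 (107296026 to 107302784, plus strand). Cish was at 2.10, 6.37 and 6.00 CPM in LN3 thymus, against 8.31, 7.97 and 13.8 CPM in WT thymocytes. It was at 8.81, 3.85 and 8.54 CPM in LN3 spleen, against 14.4, 10.4 and 11.7 CPM in WT CD8 cells. All LN3 libraries lay below the WT libraries of their organ. Neither difference was called, at −1.06 in the thymus (95% interval −2.07 to −0.04, adjusted p = 0.184) and −0.79 in the spleen (−1.80 to 0.22, adjusted p = 0.205). Both were called with the rRNA share as a covariate (−1.42, adjusted p = 0.0202, and −1.79, adjusted p = 0.0161) and with scaling to library totals (−1.29, adjusted p = 0.0474, and −1.24, adjusted p = 0.0304). Library totals shifted the median over all genes by −0.196 in the thymus and −0.399 in the spleen. Limma on the authors' log2 values called neither (−1.20, adjusted p = 0.156, and −0.445, adjusted p = 0.52). Cish shares 6.54% of its 31-base words with the antisense gene Gm17041, whose reads cannot be told apart without strand.

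Socs2, an inhibitor of growth hormone receptor signals, lies on chromosome 10 (95385362 to 95417180, minus strand) and was the scarcest member. Socs2 was at 0.966, 1.41 and 1.72 CPM in LN3 thymus, against 1.89, 1.90 and 3.35 CPM in WT thymocytes. It was at 2.79, 2.58 and 1.08 CPM in LN3 spleen, against 6.67, 3.8 and 3.15 CPM in WT CD8 cells. LN3 libraries again lay below WT libraries of the same organ. The log2 differences, −0.80 in the thymus (adjusted p = 0.373) and −1.07 in the spleen (95% interval −2.15 to 0.00, adjusted p = 0.116), were not called at 17 to 144 counts per library. The spleen difference was called with the rRNA share as a covariate (−1.77, adjusted p = 0.042) and with scaling to library totals (−1.48, adjusted p = 0.0474). Library totals shifted the spleen median over all genes by −0.399.

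Pim1, a survival kinase that STAT5 switches on, lies on chromosome 17 (29490753 to 29496112, plus strand). Pim1 was at 42.5, 50.6 and 191 CPM in LN3 thymus, against 69.2, 52.1 and 128 CPM in WT thymocytes. It was at 80.0, 109 and 70.0 CPM in LN3 spleen, against 98.4, 89.1 and 87.7 CPM in WT CD8 cells. Groups overlapped in both organs, and LN3 thymus 3 stood far above the other LN3 thymus libraries. The log2 differences were 0.19 in the thymus (95% interval −0.88 to 1.27, adjusted p = 0.858) and −0.09 in the spleen (−1.16 to 0.99, adjusted p = 0.903). Without LN3 thymus 3 the thymus difference was −0.83. Pim1 shares 11.1% of its 31-base words with the antisense gene Gm26885.

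**Figure D3:**
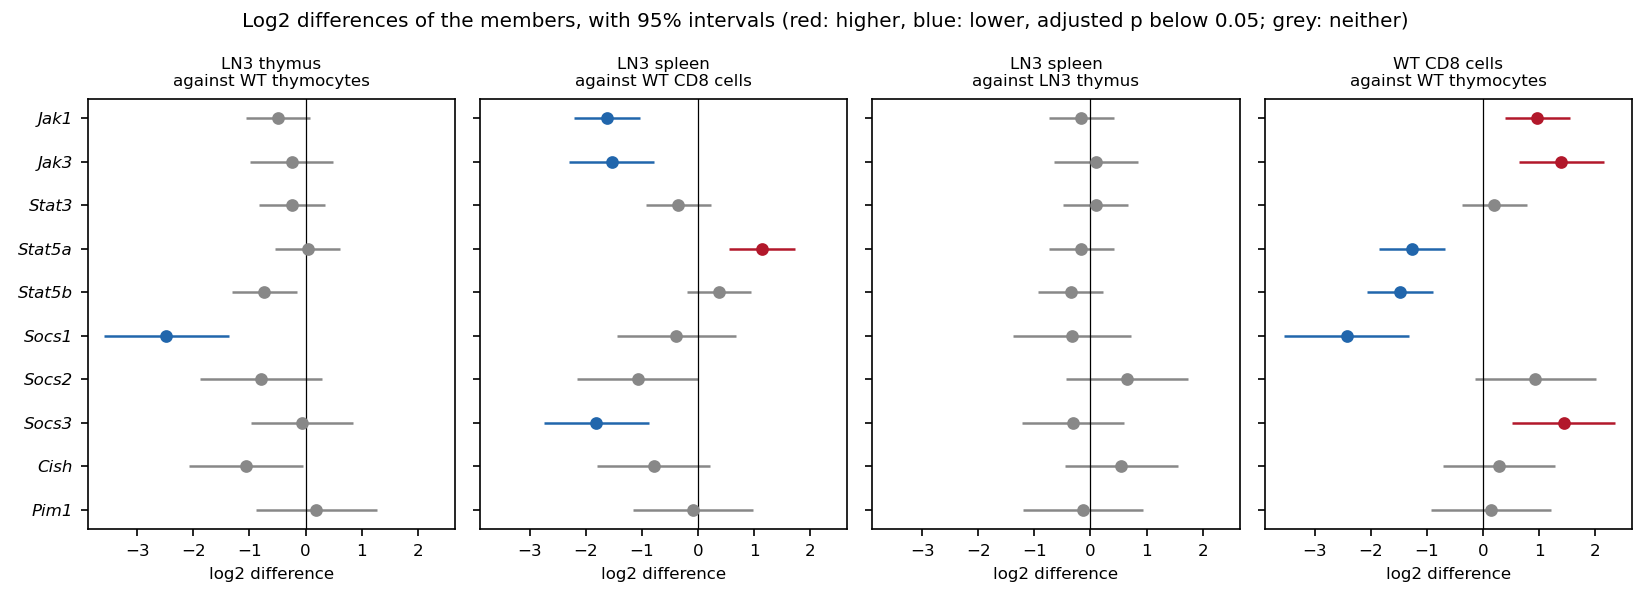
Log2 differences of the 10 members with 95% intervals in 4 comparisons, coloured where the adjusted p was below 0.05 (red higher, blue lower). Socs1 is lower in LN3 thymus than in WT thymocytes (−2.48), no member passes between LN3 spleen and LN3 thymus, and 6 pass between WT CD8 cells and WT thymocytes.

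Counting members without overlap between groups gave 5 with all LN3 thymus libraries below all WT thymocyte libraries (Jak1, Stat5b, Socs1, Socs2 and Cish) and 0 above. Over all tested genes 12.8% lay below and 14.4% above in this way. In the spleen 6 members lay below (Jak1, Jak3, Stat3, Socs2, Socs3 and Cish) and 2 above (Stat5a and Stat5b), where 30.8% of all tested genes lay below and 27.5% above. At an unadjusted p below 0.05, 3 members differed in the thymus (Stat5b, Socs1 and Cish), beside 24.7% of all genes. In the spleen comparison, markers of CD8 T cells and NK cells were lower in 9 and 8 of 10 cases, where 13% of all tested genes were called lower and 17.9% higher. Their summed levels were 942 to 1080 and 128 to 215 CPM in LN3 spleen, against 3680 to 5210 and 569 to 1140 CPM in WT CD8 cells. Erythroid markers were higher in 4 of 9 cases, at 1930 to 6510 CPM summed in LN3 spleen, against 41.2 to 709 CPM in WT CD8 cells. The CD8 T-cell and NK lists share Eomes and Nkg7. Double-positive markers were higher in 4 of 10 cases and lower in 2, at 1430 to 1480 CPM summed in LN3 spleen, against 1270 to 2040 CPM in WT CD8 cells. None of these markers was at 0 throughout a group, and their part in the spleen differences was not tested. Counts on CT010467.1 also separated the spleen groups.

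The leukaemic groups were then set against each other. Between LN3 spleen and LN3 thymus 0 of 10 members were called by edgeR, beside 0.723% of all tested genes, and 0 members passed an unadjusted p below 0.05, beside 8.7% of all genes. DESeq2 and limma on the authors' log2 values also called 0 members. The members' log2 differences ran from −0.36 (Stat5b, 95% interval −0.93 to 0.22) to 0.65 (Socs2, −0.44 to 1.74). Stat5b was the 1 member whose LN3 spleen libraries all lay below, as 5.24% of all tested genes did, at 217, 278 and 216 CPM in LN3 spleen, against 289, 304 and 316 CPM in LN3 thymus. The 95% intervals of all 10 members held 0 and reached 0.67 or more on the log2 scale in at least 1 direction. Erythroid markers were higher in LN3 spleen in 4 of 9 cases, at 1930 to 6510 CPM summed, against 10.3 to 153 CPM in LN3 thymus. Markers of CD8 T cells were higher in 2 of 10 cases and of NK cells in 1 of 10, in lists that share Eomes and Nkg7. The part of these cell types in the comparison was not tested.

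The normal groups differed more. In WT CD8 cells, Jak1, Jak3 and Socs3 rose and Stat5a, Stat5b and Socs1 fell against WT thymocytes, 3 members each way, where 7.24% of all tested genes rose and 8.49% fell. Socs1 fell 5.39-fold (log2 difference −2.43, adjusted p = 0.00672), Stat5b 2.78-fold (−1.47, adjusted p = 0.00319) and Stat5a 2.40-fold (−1.27, adjusted p = 0.0075). Jak1 rose 1.96-fold (log2 difference 0.97, adjusted p = 0.0279), Jak3 2.62-fold (1.39, adjusted p = 0.0171) and Socs3 2.71-fold (1.44, adjusted p = 0.0374). The 3 falls held without any single library, but the 3 rises depended on single libraries. Without WT thymocytes 1 or 2, or WT CD8 cells 1 or 3, the adjusted p ran from 0.0709 to 0.12 for Jak1, from 0.0527 to 0.0929 for Jak3 and from 0.0759 to 0.126 for Socs3. Without WT CD8 cells 2, Jak1 (0.063) and Socs3 (0.065) were not called, and without LN3 spleen 2 Socs3 was not called (0.0554). Markers of CD8 T cells were higher in WT CD8 cells in 7 of 10 cases and double-positive markers lower in 7 of 10. Markers of NK cells, myeloid cells and B cells were higher there in 9, 8 and 5 of 10 cases, and their summed levels were 569 to 1140, 214 to 3040 and 512 to 1480 CPM in WT CD8 cells, against 53.6 to 94.8, 81 to 222 and 358 to 605 CPM in WT thymocytes. CD8 T-cell markers summed to 3680 to 5210 CPM in WT CD8 cells, against 2320 to 4430 CPM in WT thymocytes, and double-positive markers to 1270 to 2040 CPM in WT CD8 cells, against 9350 to 13100 CPM in WT thymocytes. The NK list shares Eomes and Nkg7 with the CD8 T-cell list and Tyrobp with the myeloid list. None of these markers was at 0 throughout a group, and their part in these differences was not tested.

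The spleen contrast of LN3 against WT minus the thymus contrast, an interaction term, was called for 0 of 10 members by edgeR, beside 4.19% of all tested genes. At an unadjusted p below 0.05, 6 members had an interaction, beside 17.5% of all genes. The interaction was 2.10 for Socs1 (adjusted p = 0.125), 1.12 for Stat5b (0.133) and 1.10 for Stat5a (0.142), and −1.75 for Socs3 (0.135), −1.29 for Jak3 (0.179) and −1.14 for Jak1 (0.126). DESeq2 called Socs1 (2.16, adjusted p = 0.0427), and limma on the authors' log2 values called 0 members. The effects of the LN3 genotype on the members are thus not shown to differ between the organs by the edgeR test, and the controls of the organs were different cell types.

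Levels were also compared between members after division by the length of the annotated exons. Stat5b was the most abundant member in LN3 thymus (54.7 ± 2.44 CPM per kilobase) and in WT thymocytes (91.5 ± 36.3). Jak1 was the most abundant in LN3 spleen (46.9 ± 10.5) and in WT CD8 cells (145 ± 18.4). Stat5b and Jak1 overlapped in LN3 thymus, WT thymocytes and LN3 spleen, and Jak1 stood clear of all other members in WT CD8 cells. Jak3 followed it there at 36.8 ± 8.95 and overlapped with Stat5b at 33.0 ± 1.37. Socs2 was the lowest and Cish the next lowest in every group, at 0.143 to 0.476 and 0.751 to 1.90 CPM per kilobase on average. Socs1 ranked 3 of 10 in WT thymocytes at 36.7 ± 22.8 and 8 of 10 in the other groups, at 6.56 ± 1.60 in LN3 thymus, 5.22 ± 3.12 in LN3 spleen and 6.80 ± 1.33 in WT CD8 cells.

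**Figure D4:**
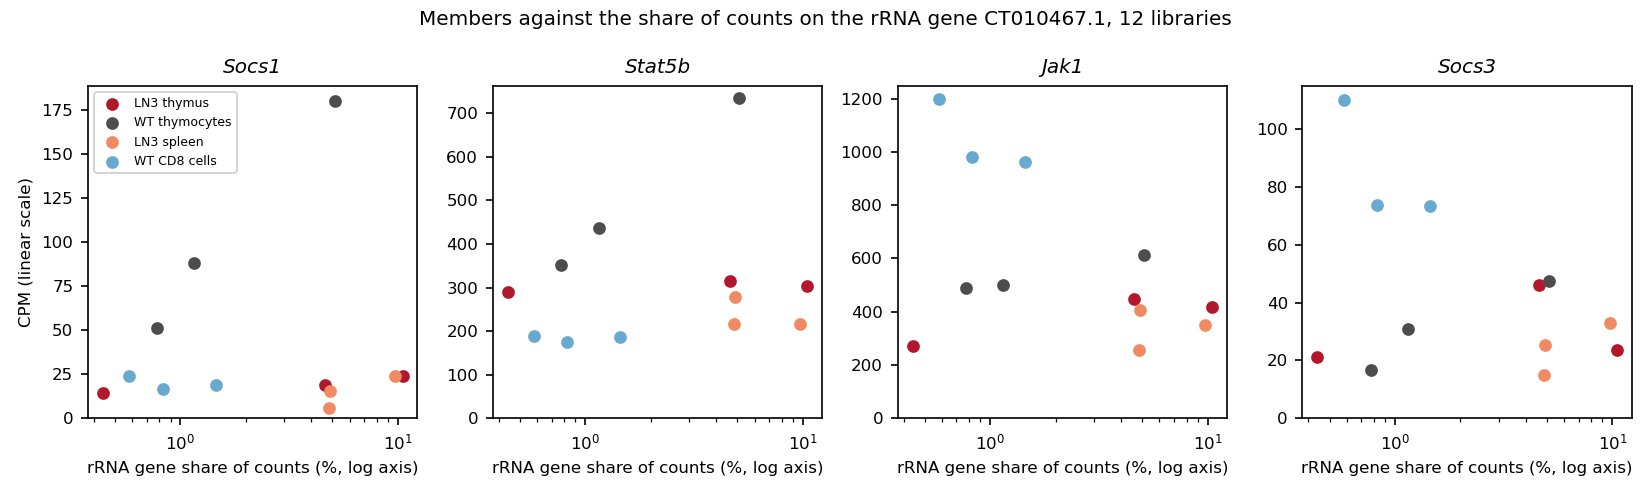
Levels of Socs1, Stat5b, Jak1 and Socs3 in CPM (linear axes) against the share of counts on the rRNA gene CT010467.1 (%, log axis), with 1 point per library coloured by group. Socs1 lies between 14.5 and 23.8 CPM in LN3 thymus at both low and high shares, and the LN3 spleen points lie at higher shares than the WT CD8 points.

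The rest of the pathway was described from lists of related genes, and called members were counted at an adjusted p below 0.05. Of these, some names were chosen after their values were seen (Cbl, Usp18, Il15ra, Il21r, Ifngr1, Ifnar1, Il10, Lif, Bcl2, Mcl1 and Gzmb). The lists themselves were chosen with earlier results of these data known, so their counts beside the shares over all genes are a description only. Il2ra stands in both the receptor and the STAT5 target lists, and Osm in both the ligand and the STAT5 target lists. Neither of the other JAK kinases, Jak2 and Tyk2, was called in the thymus or the spleen. Of the 3 further STAT genes examined, Stat2, Stat4 and Stat6, Stat2 fell in LN3 thymus and Stat2 and Stat4 fell in LN3 spleen. Of all tested genes, 5.21% fell in LN3 thymus and 13% in LN3 spleen. Stat2, a STAT factor of interferon responses, was at 32.4, 35.2 and 31.5 CPM in LN3 thymus, against 72.4, 72.7 and 115 CPM in WT thymocytes (log2 difference −1.39, adjusted p = 0.00386). Stat4, the STAT factor of IL12 signals, was at 20.0, 12.2 and 1.59 CPM in LN3 spleen, against 153, 134 and 191 CPM in WT CD8 cells (−3.83, adjusted p = 0.00144). No library overlapped between the groups in either case.

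Of 4 other SOCS genes, Socs5 alone was called, and it moved opposite to Socs1. Socs5 was at 37.7, 36.4 and 63.2 CPM in LN3 thymus, against 11.1, 9.63 and 15.7 CPM in WT thymocytes, a rise of 1.91 on the log2 scale (adjusted p = 0.0014). In the spleen 0 of the 4 were called. Of the other PIM kinases, Pim2 was at 26.8, 25.2 and 14.1 CPM in LN3 spleen, against 77.6, 84.1 and 115 CPM in WT CD8 cells, and fell by 2.07 (adjusted p = 0.00285). Of 12 other negative regulators, Cblb rose and Pias3 and Cbl fell in LN3 thymus, and Pias3 and Usp18 fell in LN3 spleen. Of all tested genes, 6.06% rose and 5.21% fell in LN3 thymus, and 17.9% rose and 13% fell in LN3 spleen. Cblb, a ubiquitin ligase that restrains T-cell activation, was at 140, 172 and 182 CPM in LN3 thymus, against 61.6, 62.3 and 59.7 CPM in WT thymocytes (1.43, adjusted p = 0.00131). Pias3, an inhibitor of STAT3, was at 0.840, 0.827 and 1.46 CPM in LN3 thymus, against 11, 8.04 and 18.2 CPM in WT thymocytes (−3.54, adjusted p = 0.000797). In LN3 spleen Pias3 was at 6.98, 2.64 and 5.07 CPM, against 23.2, 15.4 and 14.4 CPM in WT CD8 cells (−1.86, adjusted p = 0.00868, and 0.0502 without WT CD8 cells 1).

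Of 15 receptors that use JAK1 or JAK3, 3 rose (Il2ra, Il9r and Il15ra) and 5 fell (Il4ra, Il7r, Il21r, Ifngr1 and Ifnar1) in LN3 thymus, and 2 rose (Il2ra and Il9r) and 11 fell in LN3 spleen. Over all tested genes 6.06% rose and 5.21% fell in LN3 thymus, and 17.9% rose and 13% fell in LN3 spleen. Il9r, which pairs with the common gamma chain to bind IL9, was at 72.6, 98.0 and 89.0 CPM in LN3 thymus, against 7.84, 7.24 and 10.5 CPM in WT thymocytes (log2 difference 3.35, adjusted p = 0.000167). Il9r was at 67.5, 82.1 and 86.6 CPM in LN3 spleen, against 3.66, 6.87 and 2.39 CPM in WT CD8 cells (4.19, adjusted p = 1.45e-05). Every LN3 library stood far above every WT library for this receptor. Il7r, the receptor chain for IL7, was at 24.4, 10.1 and 7.69 CPM in LN3 spleen, against 417, 387 and 837 CPM in WT CD8 cells (−5.29, adjusted p = 9.54e-05). Il4ra, the receptor chain for IL4, was at 8.90, 12.5 and 15.7 CPM in LN3 thymus, against 217, 129 and 374 CPM in WT thymocytes (−4.27, adjusted p = 0.000845). Both were far lower in the LN3 libraries, without overlap.

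Il2ra, the high-affinity chain of the IL2 receptor and a STAT5 target, was at 441, 218 and 184 CPM in LN3 thymus, against 52.9, 39.6 and 58.0 CPM in WT thymocytes. In LN3 spleen it was at 41.2, 42.5 and 352 CPM, against 14.2, 7.28 and 7.18 CPM in WT CD8 cells. LN3 libraries lay above WT libraries in both organs, and LN3 spleen 3 stood apart from the other LN3 spleen libraries. Il2ra rose by 3.93 in the spleen (adjusted p = 0.00264) and by 2.49 in the thymus (adjusted p = 0.0434). The thymus call was lost without any single thymus library or any single WT CD8 library, with an adjusted p of 0.0507 to 0.13.

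Of 12 ligands, 8 were tested, and Il2, Il7, Il9 and Il6 did not pass the filter on low counts. In LN3 thymus Il21 was called lower, and in LN3 spleen Lif was called higher. Il22 and Il10 had few or no counts in WT libraries and passed the filter through the LN3 groups, so their calls are not counted here and their levels are a description. Il10 was at 1.18, 1.65 and 2.65 CPM in LN3 thymus and 0.523, 1.45 and 3.7 CPM in LN3 spleen, with no count in WT thymocytes and at most 0.164 CPM in WT CD8 cells. Il22 was at 12, 9.10 and 3.63 CPM in LN3 thymus and 1.13, 1.25 and 14 CPM in LN3 spleen, and had no count in any of the 6 WT libraries, where 3 counts would equal 0.0657 to 0.258 CPM. The Il22 level is uncertain, since the near-identical copy Iltifb can share its reads. Il21, whose receptor uses JAK1 and JAK3, was at 0.336, 0.0827 and 0.197 CPM in LN3 thymus, against 1.35, 1.66 and 0.774 CPM in WT thymocytes (−2.52, adjusted p = 0.0136). That call was lost without LN3 thymus 3 (0.0582) or WT thymocytes 1 (0.0517). In LN3 thymus 2 the Il21 level was below the 0.248 CPM that 3 counts equal in that library. Il21 was highest in WT thymocytes and may have passed the filter through them, so its call is a description only.

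Of 11 other STAT5 targets, 7 fell and Il2ra alone rose in LN3 thymus, and 4 fell (Bcl2, Mcl1, Ccnd2 and Gzmb) and Il2ra rose in LN3 spleen, beside 5.21% of all tested genes lower in LN3 thymus and 13% in LN3 spleen. The list did not separate genes that STAT5 switches on from genes that it represses, so these counts do not measure STAT5 activity. Ccnd2, the D-type cyclin induced by STAT5, was at 11.7, 15.8 and 23.9 CPM in LN3 thymus, against 172, 167 and 292 CPM in WT thymocytes (−3.62, adjusted p = 0.000143). Ccnd2 was at 55.7, 25.7 and 30.8 CPM in LN3 spleen, against 554, 567 and 621 CPM in WT CD8 cells (−3.96, adjusted p = 2.99e-05). In both organs its LN3 libraries lay far below its WT libraries.

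**Figure D5:**
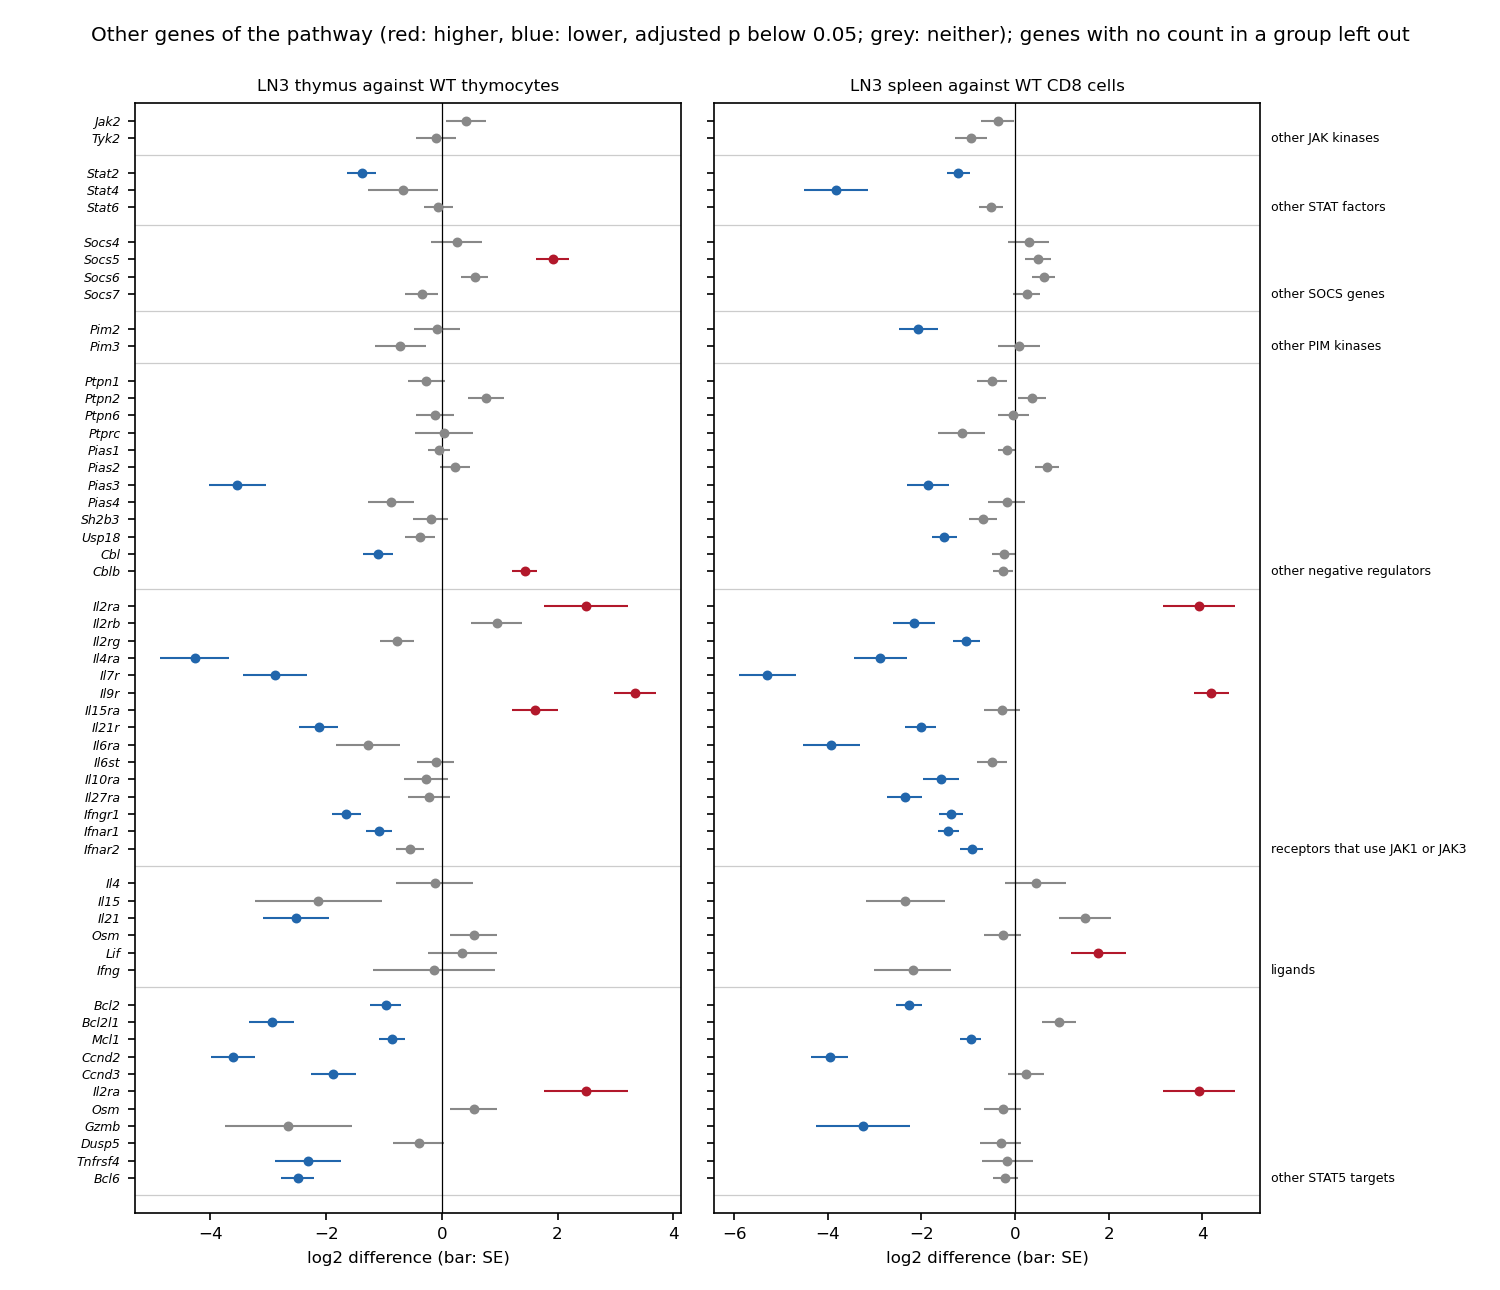
Log2 differences (points) with standard errors (bars) of the other genes of the pathway, by list, in LN3 thymus against WT thymocytes and in LN3 spleen against WT CD8 cells, coloured where the adjusted p was below 0.05; Il10 and Il22, without a count in a WT group, are left out. Il9r is higher in both panels (3.35 in the thymus and 4.19 in the spleen) and Ccnd2 lower in both (−3.62 and −3.96).

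For the feedback genes and Pim1, the genes with the most similar profile were found by the root mean square difference of centred log2 CPM over the 12 libraries. Socs1 was closest to Fbxl12 (0.338) and Il17rc (0.376), where the median over all genes was 1.48. Socs3 was closest to Tgfbr2 (0.283) and to Pim2 (0.303), beside a median of 1.12. Cish was closest to Tmem254b (0.277) and Gucd1 (0.297), beside 1.08. Socs2 was closest to Castor1 (0.274) and Tnfsf14 (0.275), beside 1.04, and Pim1 to Tspan32 (0.32) and Dap (0.354), beside 0.965. These likenesses rest on the same libraries and depths and describe profiles only.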

How the data were processed

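Polyadenylated RNA of 12 mouse samples was sequenced from directional libraries as read pairs. Per the submitters' processing notes, kallisto 0.46.1, FastQC, DESeq2 and build GRCm38 were used. The authors deposited estimated counts per gene, of which 100% were whole numbers; they were rounded all the same. The authors also deposited log2 values, used in an alternative only; these are not a function of the counts alone, with a residual SD of 0.116 over 1662 genes above 1000 counts. The table lists 54351 genes, of which 16997 had no count.

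Counts were tested with edgeR 4.0.16 in R 4.3.3: filterByExpr, TMM, 4 group means over 12 libraries, robust quasi-likelihood tests, Benjamini-Hochberg adjustment over 20897 genes and a threshold of 0.05. The common biological coefficient of variation was 0.4411. Folds come from the fit, CPM are shown per library, and a count of 3 equals 0.0657 to 0.262 CPM. Settings were tested on simulated counts. DESeq2 1.42.0, limma 3.58.1, other scalings, no filter, only the groups compared, each library left out and a replicate block were alternatives. The rRNA covariate and subsets, the Stat5a share and its alternatives were added after the data were seen. Members and lists were chosen with earlier results of these data known. The rule for names took all 10 members, the called gene with the largest rise and fall of each list in each LN3 against WT comparison, and for 5 feedback or target members the 2 genes with the most similar profile. A gene of the pathway lists is not reported here. Annotation was GENCODE M21.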

Additional observations from a re-analysis of the deposited data

Results flagged for a closer look

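Only the members and the genes named by the rule were considered for this section. Outside it, 2 of 15 receptors that use JAK1 or JAK3 had a lower interaction and 3 of 11 other STAT5 targets a higher one. Of all tested genes, 4.19% had a called interaction (edgeR, adjusted p below 0.05). Cblb differed between the organs in its LN3 against WT contrast. The interaction (spleen contrast minus thymus contrast) was −1.68 on the log2 scale (edgeR adjusted p = 0.00796), with log2 differences of 1.43 in the thymus and −0.25 in the spleen. Cblb was at 131, 113 and 167 CPM in LN3 spleen, against 164, 147 and 177 CPM in WT CD8 cells, and these overlapped. Between the controls, Cblb was higher in WT CD8 cells than in WT thymocytes (log2 difference 1.41, edgeR adjusted p = 0.000967). Between LN3 spleen and LN3 thymus it was not called (−0.27, edgeR adjusted p = 0.824). The controls were different cell types, so organ and control cell type cannot be told apart here.

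Il21 also differed between the organs, with an interaction of 4.02 (edgeR adjusted p = 0.0133) and log2 differences of −2.52 in the thymus and 1.5 in the spleen. It was at 0.523, 1.01 and 0.513 CPM in LN3 spleen, against 0.219, 0.221 and 0.285 CPM in WT CD8 cells. These levels are low, and in LN3 thymus 2 Il21 lay below the level of 3 counts (0.248 CPM). The interaction is therefore a description only. Between the controls, Il21 was lower in WT CD8 cells than in WT thymocytes (log2 difference −2.35, edgeR adjusted p = 0.0125). Between LN3 spleen and LN3 thymus Il21 was not called (1.67, edgeR adjusted p = 0.303).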

How the results depend on the processing

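The settings with only thymus libraries high or low in rRNA have 1 library in an arm, which is assumed to vary like the other groups, so they are weak checks. Over all alternatives, 626 values kept their direction and side of the threshold, 24 lost their call, 17 gained it and 23 changed sign. Members lower in LN3 thymus numbered 3 with library totals, 2 with upper-quartile factors, the rRNA covariate or only libraries high in rRNA, 0 with only libraries low in rRNA, and 1 to 2 with a library left out. Members lower in LN3 spleen numbered 6 with library totals (3783 of 20897 tested genes lower, against 2713 with TMM), 5 with the rRNA covariate, which left 0 higher, and 4 with upper-quartile factors or limma. Members higher in WT CD8 cells numbered 0 with only thymus libraries high in rRNA and 0 to 3 with a library left out. Interactions called numbered 1 higher with DESeq2, 2 higher with only thymus libraries high in rRNA and 1 lower with the rRNA covariate. The Stat5a share difference in the spleen was 16.5 points from the authors' log2 values. Library totals and upper-quartile factors shifted the median over all genes by −0.196 and −0.167 in the thymus and by −0.399 and −0.325 in the spleen. They put 38.2 and 41.2% of thymus calls higher, beside 53.8% with TMM, and 40 and 41.7% of spleen calls, beside 58%.

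Differences in the thymus that changed sign were not called. Stat5a was −0.0076 with DESeq2, −0.11 with library totals or upper-quartile factors, −0.0063 with the rRNA covariate, −0.41 with libraries high in rRNA and −0.19 to 0.42 with a library left out. Pim1 was −0.045 with limma, −0.0057 with the covariate, −0.032 and −0.53 with libraries high or low in rRNA and −0.83 to 0.66 with a library left out. With a library left out, Jak3 ran from −0.43 to 0.075, Socs3 from −0.50 to 0.36 and Stat3 from −0.46 to 0.096, and in the spleen Socs1 from −0.85 to 0.0051 and Pim1 from −0.25 to 0.047. Stat5b in the spleen was −0.017 with library totals. The cause was not tested.

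Deviations of same-numbered LN3 thymus and LN3 spleen samples had correlations of −0.528 to −0.0412, and the numbers were not taken as pairs. Over all same-numbered samples, those of LN3 with WT included, correlations ran from −0.528 to 0.336. Other differences between libraries, such as the rRNA share, also enter these deviations, so the check cannot show whether libraries share an animal. With a replicate block, Jak1 in WT CD8 cells was not called (adjusted p = 0.052), and 1 member was higher there with the block within genotype.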

Other observations

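Between LN3 spleen and LN3 thymus, none of the lists of other JAK, STAT, SOCS and PIM genes, negative regulators, receptors, ligands or STAT5 targets held a called gene (edgeR, adjusted p below 0.05). Between WT CD8 cells and WT thymocytes, 6 of 15 receptors that use JAK1 or JAK3 were higher and 1 was lower, and of 11 other STAT5 targets 3 were higher and 4 were lower, beside 7.24% of all tested genes higher and 8.49% lower. Of Stat2, Stat4 and Stat6, Stat4 was higher and 0 were lower in WT CD8 cells.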
